A study of Mus musculus with 2 samples.

Results

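The cells described here were the Ly6C-high monocytes of mouse bone marrow, taken from single-cell RNA sequencing of 1 control mouse and 1 double knockout mouse. Ly6C-high, or classical, monocytes arise in the marrow from granulocyte-monocyte progenitors by way of dividing precursors. They carry the chemokine receptor Ccr2, which draws them into the blood and to sites of infection, where they become macrophages and dendritic-like cells, and some convert into Ly6C-low monocytes that patrol vessels. Like other myeloid cells they read interferon through Ifnar1 and Ifnar2 and answer with a set of interferon-stimulated genes. The DNA sensor cGAS, encoded by Cgas, acts upstream of interferon through the adaptor STING. The comparison addressed what these monocytes expressed when the RNA helicase gene Ddx41 was deleted in the blood lineage of an animal that also lacked cGAS.

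The control library (WT) came from a Ddx41 fl/fl littermate without the Cre transgene and with intact cGAS. The other library (DKO) was labelled VavCre:Ddx41 fl/fl, cGAS-/-. Both mice were 2 months old, and marrow was flushed from the femur and run on a droplet platform that counts the 3' ends of transcripts. VavCre acts in all hematopoietic cells and also in some endothelial cells and oocytes, whereas the cGAS deletion was present in every tissue. With 1 mouse and 1 library per genotype, the effects of genotype, mouse and library preparation cannot be told apart and no difference could be tested. Values are therefore given side by side, and every interval printed covers counting error alone.

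Members were chosen by their own transcripts. A barcode with at least 500 unique molecules (UMIs), at most 20% mitochondrial UMIs and under 20% hemoglobin UMIs had to hold at least 5 UMIs of F13a1, Ccr2, Ms4a6c and Fn1 from at least 2 of these 4 genes. It also had to stay under 5% for the neutrophil granule genes S100a8, S100a9, Camp, Ngp and Ltf, under 0.5% for the azurophil granule genes Elane, Mpo, Prtn3 and Ctsg, at 0 for Siglech, under 5 UMIs for C1qa, C1qb and C1qc together and under 2 for Cd79a. The rule found 1805 cells of the 33691 barcodes kept, 1172 in WT and 633 in DKO. Their share was 5.93% of the 19764 WT barcodes (exact 95% interval 5.60% to 6.27%) and 4.55% of the 13927 DKO barcodes (4.21% to 4.90%). Over barcodes with under 20% hemoglobin the shares were 10.1% and 8.06%. The WT file listed 1518290 barcodes with no cell calling, while the DKO file held 14142 called barcodes, so these denominators differed in kind.

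The 4 rule genes set the membership, so their levels are description only. Near the threshold, 26 and 17 WT barcodes held 3 and 4 UMIs of the rule genes, and 19 and 20 held 5 and 6. The corresponding DKO barcodes numbered 15 and 3 below the threshold and 13 and 3 at or just above it. The WT barcodes with 5 and 6 UMIs carried 7378 and 11532 counts in every 1000000 UMIs of the cells summed (CPM) of MHC class II genes and 237 and 16 CPM of Ly6c2. The DKO barcodes with 5 and 6 UMIs carried 1596 and 5222 CPM of class II genes. The median member was far from this edge, with 45 UMIs of the rule genes in WT and 70 in DKO. Of the exclusions, the azurophil criterion removed the most cells, 274 in WT and 93 in DKO, which are the cells at the progenitor boundary.

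Members had a median of 7770 UMIs and 2783 genes in WT and of 10098 UMIs and 3298 genes in DKO, and summed to 11657957 and 8467288 UMIs. Mitochondrial UMIs were at a median of 1.66% and 1.68%. The libraries shared 82 barcodes, none of them a member in both. Free RNA was present in both: hemoglobin took 0.998% of members' UMIs in WT and 0.537% in DKO. The profile of free RNA was taken from WT barcodes of at most 100 UMIs, because the DKO file held none. On this profile, and if all hemoglobin came from lysed cells, free RNA made up at most 6.88% and 3.70% of members' UMIs. The 3.70% for DKO holds only if its free RNA had the same profile. In B cells, which should lack them, F13a1 stood at 138 CPM in WT against 43.2 in DKO and Fn1 at 85.3 against 14.4, so the background of these 2 monocyte transcripts was higher in the WT library.

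Of the 5 markers given for these cells, the rule used 4, so only Ly6c2, the surface antigen gene behind their name, bears on the name. It was at 1747 CPM in WT members and 1419 CPM in DKO members. Ly6c2 did not set members apart from granulocyte-monocyte progenitors, which held 1438 and 1589 CPM, and neutrophils held 815 and 789 CPM. The Ly6C-low monocytes that were not members numbered 44 in WT and 29 in DKO. They held 136 CPM in WT and 0 of 123471 UMIs in DKO, which allows up to 24.3 CPM. Ly6c2 was missing from 181 WT members (15.4%) and 104 DKO members (16.4%). Of the rule's own genes, given as description, F13a1, the coagulation factor XIII A chain, was at 1783 CPM in WT and 2330 CPM in DKO, and Fn1, fibronectin, at 1418 and 1616 CPM. Ccr2 differed little, at 913 and 943 CPM, and Ms4a6c, a tetraspan membrane protein gene, was at 1320 and 959 CPM.

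**Figure D1:**
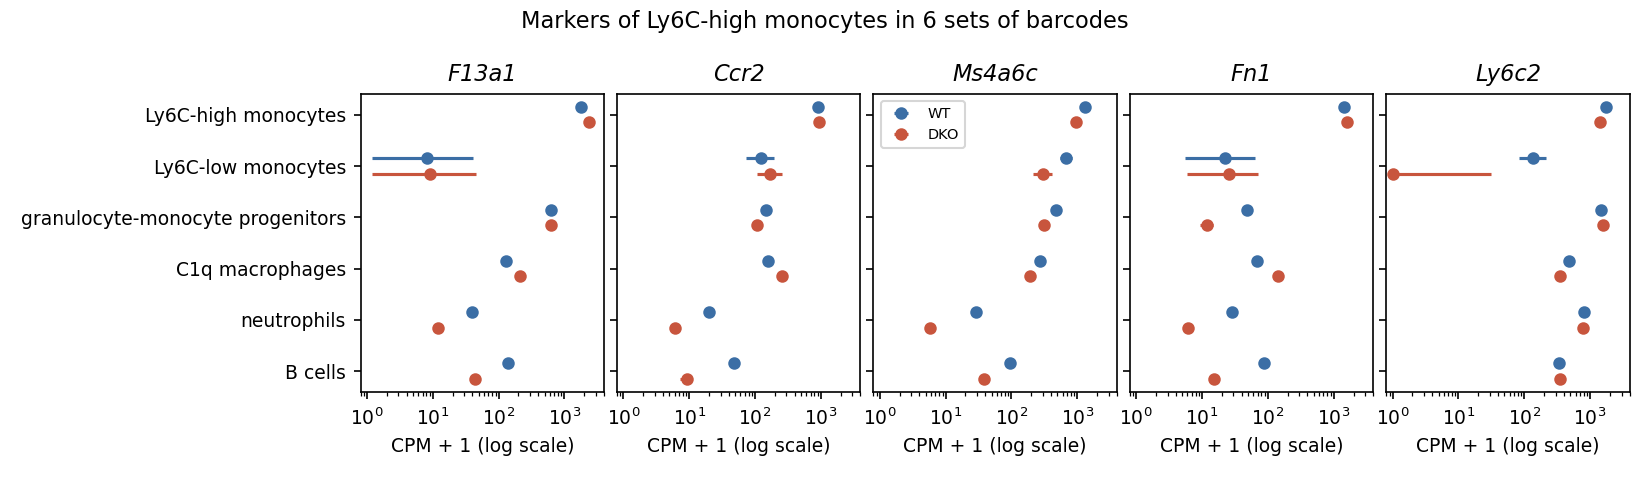
Levels of the 4 rule genes and Ly6c2, in CPM plus 1 on a log scale, in 6 sets of barcodes of the WT (blue) and DKO (red) libraries, with exact Poisson intervals as bars. Members sit at the right of the F13a1, Ccr2, Ms4a6c and Fn1 panels, as the rule requires, while Ly6c2 at 1747 and 1419 CPM in members is close to its level in progenitors.

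Markers of other cells were low but not at 0. The 8 Ly6C-low markers summed to 125 and 127 CPM in WT and DKO members, against 4279 and 4025 CPM in Ly6C-low cells. That set was chosen by Treml4, Ace, Cd300e, Adgre4 and Eno3, which are among the 8, so the contrast is description only. Of 93 WT and 70 DKO barcodes that met the Ly6C-low criteria, 49 and 41 were members and were left out of that set. The 9 C1q macrophage markers summed to 88.2 and 55.0 CPM, the 9 dendritic markers to 194 and 183 CPM, and the 7 B cell markers to 42.2 and 20.9 CPM. The 10 neutrophil markers summed to 1749 CPM in WT and 963 CPM in DKO. Megakaryocyte and platelet markers stood apart: their 6 genes summed to 135 CPM in WT members and 1682 CPM in DKO members. Of the 11681 UMIs of the platelet genes Pf4 and Ppbp in DKO members, 2 barcodes held 99.0%, with 5893 and 5675 UMIs. These barcodes had 97630 and 111724 UMIs in all and no Ly6c2 or Ms4a6c, but 856 and 566 UMIs of the megakaryocyte integrin Itga2b, and they passed the rule with 22 and 63 UMIs of F13a1, which megakaryocytes also make, and 1 UMI of a second rule gene each, Ccr2 in one and Fn1 in the other. At least 2 UMIs of markers foreign to monocytes were found in 184 WT and 91 DKO members, so ratios are also given without these cells, that is for 988 WT and 542 DKO members.

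The targeted genes were read first. Ddx41 had 428 UMIs in WT members and 154 UMIs in DKO members, or 36.7 and 18.2 CPM. The log2 ratio of DKO over WT, with 1 count added to each library, was -1.01 (95% interval -1.29 to -0.74), and it was -0.90 without members carrying foreign markers. In progenitors, neutrophils, C1q macrophages and B cells the Ddx41 ratio was -1.33, -0.98, -1.32 and -1.09, and in neutrophils Ddx41 was at a mean of less than 20 CPM. Cgas had 424 UMIs in WT members and 234 in DKO members, a ratio of -0.39 (-0.63 to -0.16). Which exons were deleted was not known here, and whether the 3' reads counted lie outside them was not tested. Residual counts in DKO members are therefore not a measure of intact message.

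Of 6559 genes at a mean of at least 20 CPM, 294 (4.48%) were at least 1.5-fold higher in DKO members and 148 (2.26%) at least 1.5-fold lower, and the median log2 ratio was 0.09. A 1.5-fold difference, 0.58 on the log2 scale, is the size used below for calling a gene higher or lower. Under median-of-ratios scaling, which moves every ratio by -0.09, the counts were 171 higher and 273 lower, so the balance between the directions depends on the scaling. The 10% of genes with the largest ratios in either direction began at 0.52. Among the higher genes, 46 had at least 50% of their DKO UMIs in 2 members, whereas this held for the WT UMIs of 2 of the lower genes. Leaving out the members with foreign markers kept 176 of the 294 higher genes and 107 of the 148 lower genes past 1.5-fold. The same count of genes in progenitors was 346 higher and 82 lower, and in B cells 203 and 178.

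**Figure D2:**
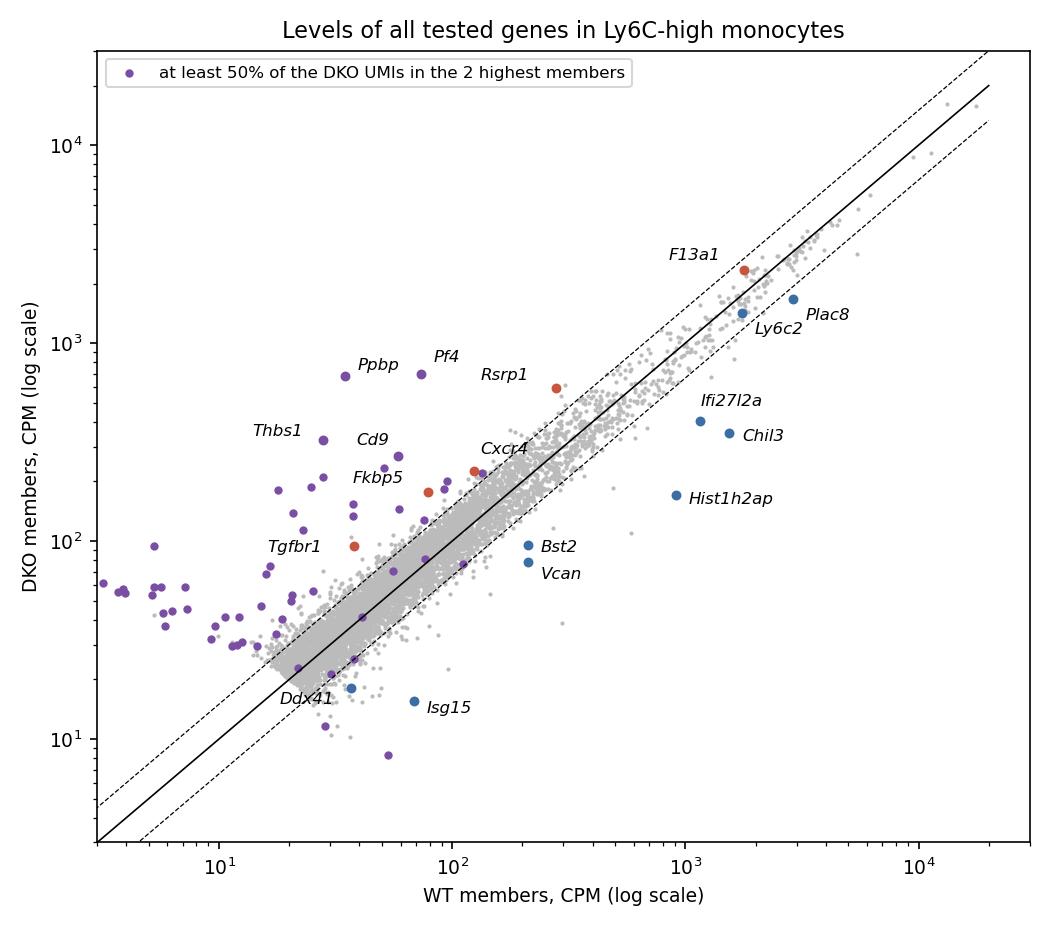
Level of each of the 6559 tested genes in WT members (horizontal) and DKO members (vertical), in CPM on log scales, with the diagonal at equality and dashed lines at 1.5-fold. Named genes are blue where lower and red where higher in DKO; purple points have at least 50% of their DKO UMIs in the 2 highest members and make up most of the cloud at the upper left, Ppbp, Pf4, Thbs1 and Cd9 included.

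Interferon-stimulated genes were the list with the lowest median. Of 44 genes listed, 42 were in the files and 29 were tested, 14 of them were lower and 1 was higher, against 2.26% and 4.48% of all genes, and the list's median log2 ratio was -0.45. Ratios were below 0 for 26 of the 29. Without members that held at least 2 G2 and M phase UMIs the median was -0.72. The summed level of the list was 6987 CPM in WT members and 4423 CPM in DKO members.

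The promoters of Isg15 and Bst2 are shown because these genes were among the lower ones and both hold copies of the motif GAAA, any 2 bases, GAAA, the core of the interferon-stimulated response element. The sequences are the 250 bases before the first listed start of each gene, read 5′ to 3′ on the gene's own strand, and capitals mark the matches. They come from RefSeq on GRCm38.p6, at chr4:156200819-156201068 for Isg15 and chr8:71537473-71537722 for Bst2, both on the minus strand.
Isg15: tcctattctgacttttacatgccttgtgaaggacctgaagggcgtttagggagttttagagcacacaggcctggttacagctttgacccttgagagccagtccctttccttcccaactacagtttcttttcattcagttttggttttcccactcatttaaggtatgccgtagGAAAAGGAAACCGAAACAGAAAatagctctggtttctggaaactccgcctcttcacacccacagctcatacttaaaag
Bst2: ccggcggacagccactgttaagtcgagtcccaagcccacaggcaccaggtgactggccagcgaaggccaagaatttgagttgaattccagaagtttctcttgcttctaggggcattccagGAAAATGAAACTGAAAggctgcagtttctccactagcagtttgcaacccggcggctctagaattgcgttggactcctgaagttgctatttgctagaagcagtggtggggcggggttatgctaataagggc
The Isg15 promoter had 3 overlapping matches, the first 78 bases before the start, and the Bst2 promoter had 2 overlapping matches, the first 130 bases before it.

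Searched on both strands over 300 bases, from 250 before to 50 after the start, the motif was found in 943 of 27025 promoters (3.49%) and in 184 of the 5300 promoters matched to tested genes (3.47%). Of the 24 tested interferon genes with a promoter entry, 12 held it, 6 of 12 among the lower genes and 6 of 12 among the others, so the letters did not separate the lower genes from the rest of the list. These promoters were chosen for display after the values were seen.

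Isg15, a ubiquitin-like protein that interferon induces, had 797 UMIs in WT members and 132 UMIs in DKO members, or 68.4 and 15.6 CPM, a log2 ratio of -2.12 (-2.41 to -1.87). Free RNA of the WT profile could account for up to 18.5% of its WT UMIs and 43.6% of its DKO UMIs. The free RNA of the DKO library was not profiled, so the DKO value is not a measure of that library. Ifi27l2a, a small interferon-inducible membrane protein gene, was counted far more deeply, with 13477 and 3422 UMIs, or 1156 and 404 CPM. Its ratio was -1.52 (-1.57 to -1.46), and free RNA could supply at most 0.908% of the WT count. Bst2, or tetherin, which holds budding virions at the cell surface, was at 211 and 95.1 CPM, a ratio of -1.15 (-1.27 to -1.04). All 3 stayed lower without the members that carried foreign markers, at -1.83, -1.45 and -1.24.

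The lower genes included regulators and effectors. Irf7, the transcription factor that amplifies interferon production, was at 48.6 CPM in WT members and 16.7 CPM in DKO members (-1.54). The antiviral enzyme gene Rsad2, or viperin, was at 32.0 and 11.6 CPM (-1.46), and Oasl2, of the oligoadenylate synthetase family, at 49.2 and 22.9 CPM (-1.10). Rtp4 was at -1.51, Xaf1 at -1.19, Phf11b at -1.0, the exonuclease gene Isg20 at -0.93, and the Schlafen genes Slfn1 and Slfn5 at -0.86 and -0.61. Ifitm3, which blocks viral entry, was at 2144 and 1423 CPM (-0.59), and Ms4a4c at 368 and 214 CPM (-0.78). Not every interferon gene followed: Stat2, which carries the interferon signal to the nucleus, was at -0.14, Irf9 at -0.22, Slfn2 at -0.11 and Cmpk2 at 0.13. The 1 higher gene, the GTPase gene Igtp, was at 1.75, but at -0.12 without the members that carried foreign markers.

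Several canonical members of the list were under the mean of 20 CPM needed for a call and had ratios below -1. Oas1a had 290 and 47 UMIs (24.9 and 5.55 CPM), Ifit3 233 and 72 UMIs, Oas3 318 and 103 UMIs, and Ifit1 166 and 41 UMIs. Their log2 ratios were -2.14, -1.22, -1.16 and -1.53. Guanylate-binding protein genes went both ways, with Gbp3 at 0.11 and, below 20 CPM, Gbp2 at 0.46 and Gbp7 at -0.46.

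Interferon genes were also lower in DKO cells that were not monocytes. The list's median was -0.26 in granulocyte-monocyte progenitors, -0.92 in neutrophils, -0.53 in C1q macrophages and -0.48 over all other kept barcodes, on the genes tested in each. Ifi27l2a was at -3.28 in progenitors, -2.03 in neutrophils, -1.75 in C1q macrophages and -1.76 in B cells, and Ifitm3 at -1.43, -1.29, -1.09 and -1.88. For Isg15 the ratios were -0.64, -2.06, -1.23 and -2.38. Among the 148 lower genes of the members, 22 were at least 1.5-fold lower in all 4 of these cell sets as well, Ifitm3, Ifi27l2a, Bst2, Isg15, Oasl2, Irf7 and Xaf1 among them.

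**Figure D3:**
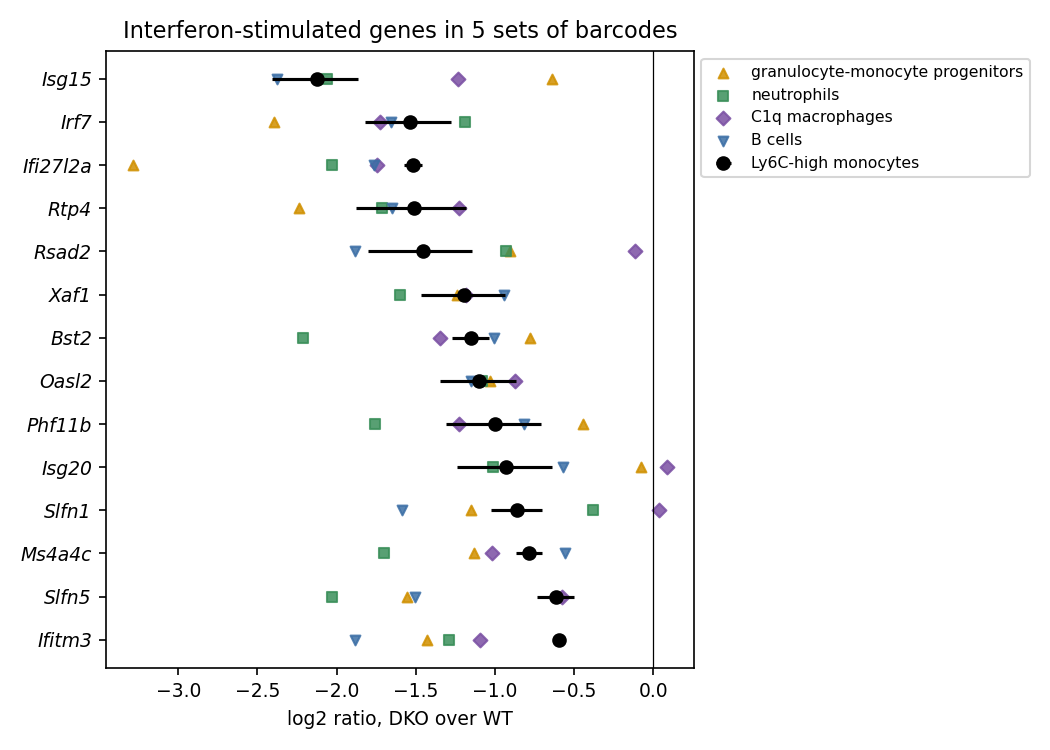
Log2 ratio of DKO over WT for the 14 interferon-stimulated genes that were at least 1.5-fold lower in members (black, with 95% counting intervals) and for the same genes in progenitors, neutrophils, C1q macrophages and B cells. Nearly all points lie left of 0, Isg20 and Slfn1 in C1q macrophages being the exceptions, and Ifi27l2a and Ifitm3 in members lie nearer to 0 than in the other 4 sets. The minimum of 20 CPM was applied in members only.

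Genes of cytosolic nucleic acid sensing had a median of -0.42 over 19 tested genes, with 3 lower and none higher, against 2.26% and 4.48% of all genes. The lower ones were Irf7, Ddx41 and Zbp1, a sensor of left-handed nucleic acids, at 70.9 CPM in WT members and 32.2 CPM in DKO members (-1.13). The helicase sensors Ddx58 and Ifih1, themselves interferon-inducible, were at -0.42 and -0.46, and the DNA-binding proteins Ifi203 and Ifi204 at -0.42 and -0.44. The signaling core was close to equal: Tmem173, which encodes STING, had 42.6 and 41.1 CPM (-0.05), its kinase gene Tbk1 52.2 and 57.0 CPM (0.13), and Irf3 23.4 and 22.2 CPM (-0.07). Samhd1 was at 430 and 508 CPM (0.24). The interferon receptor genes themselves were at 0.41 for Ifnar1 and 0.02 for Ifnar2, and the interferon-gamma receptor genes Ifngr1 and Ifngr2 at 0.02 and 0.29.

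Another set of differences lay among the genes that define classical monocytes but were not used by the rule. Of 25 listed, 23 were tested, with 8 lower and 1 higher, against 2.26% and 4.48% of all genes, and a median of -0.27. Chil3, or Ym1, a secreted chitinase-like protein of immature classical monocytes and neutrophil precursors, had 18021 UMIs in WT members and 2972 UMIs in DKO members. That was 1546 and 351 CPM, a log2 ratio of -2.14 (-2.20 to -2.08), and -2.02 without members carrying foreign markers. The Chil3 ratio was -1.54 in progenitors, -0.36 in neutrophils, -0.39 in C1q macrophages and -2.69 in B cells, which should lack the gene and held 85.7 and 13.2 CPM. Vcan, the matrix proteoglycan versican, was at 211 and 78.3 CPM, a ratio of -1.43 (-1.55 to -1.30). The Vcan ratio was -1.47 in progenitors, -4.39 in neutrophils, -0.59 in C1q macrophages and -0.81 in B cells, where it was at 9.36 and 5.31 CPM. In neutrophils, too, Vcan was under a mean of 20 CPM. The list's median was -0.35 in progenitors, -0.08 in neutrophils, -0.01 in C1q macrophages and -0.50 over all other kept barcodes. Chil3 and Vcan do not belong to the interferon list.

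Plac8, a small cysteine-rich protein gene of myeloid cells, was at 2883 CPM in WT members and 1667 CPM in DKO members (-0.79), with ratios of -0.43 in progenitors, -1.19 in neutrophils, -1.39 in C1q macrophages and -0.95 in B cells. Hp, the hemoglobin scavenger haptoglobin, was at 523 and 326 CPM (-0.68). Ms4a6d and Gm9733 were at -0.80 and -0.60, and the remaining lower genes of this list, Ms4a4c and Ifitm3, also stand in the interferon list. Ly6c2 itself was at -0.30 (-0.33 to -0.27), as was the lysozyme gene Lyz2, and the lectin gene Lgals3 at -0.29. Other defining genes were level or higher: S100a4 at 1721 and 1699 CPM (-0.02), Ccl9 at -0.01, Emb at 0.05 and Tgfbi at 0.26. Thbs1, thrombospondin, was the 1 higher gene at 3.53, but at 0.23 without the members that carried foreign markers; platelets and megakaryocytes also make it. The median of the list without those members was -0.16, with 5 genes lower and none higher.

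**Figure D4:**
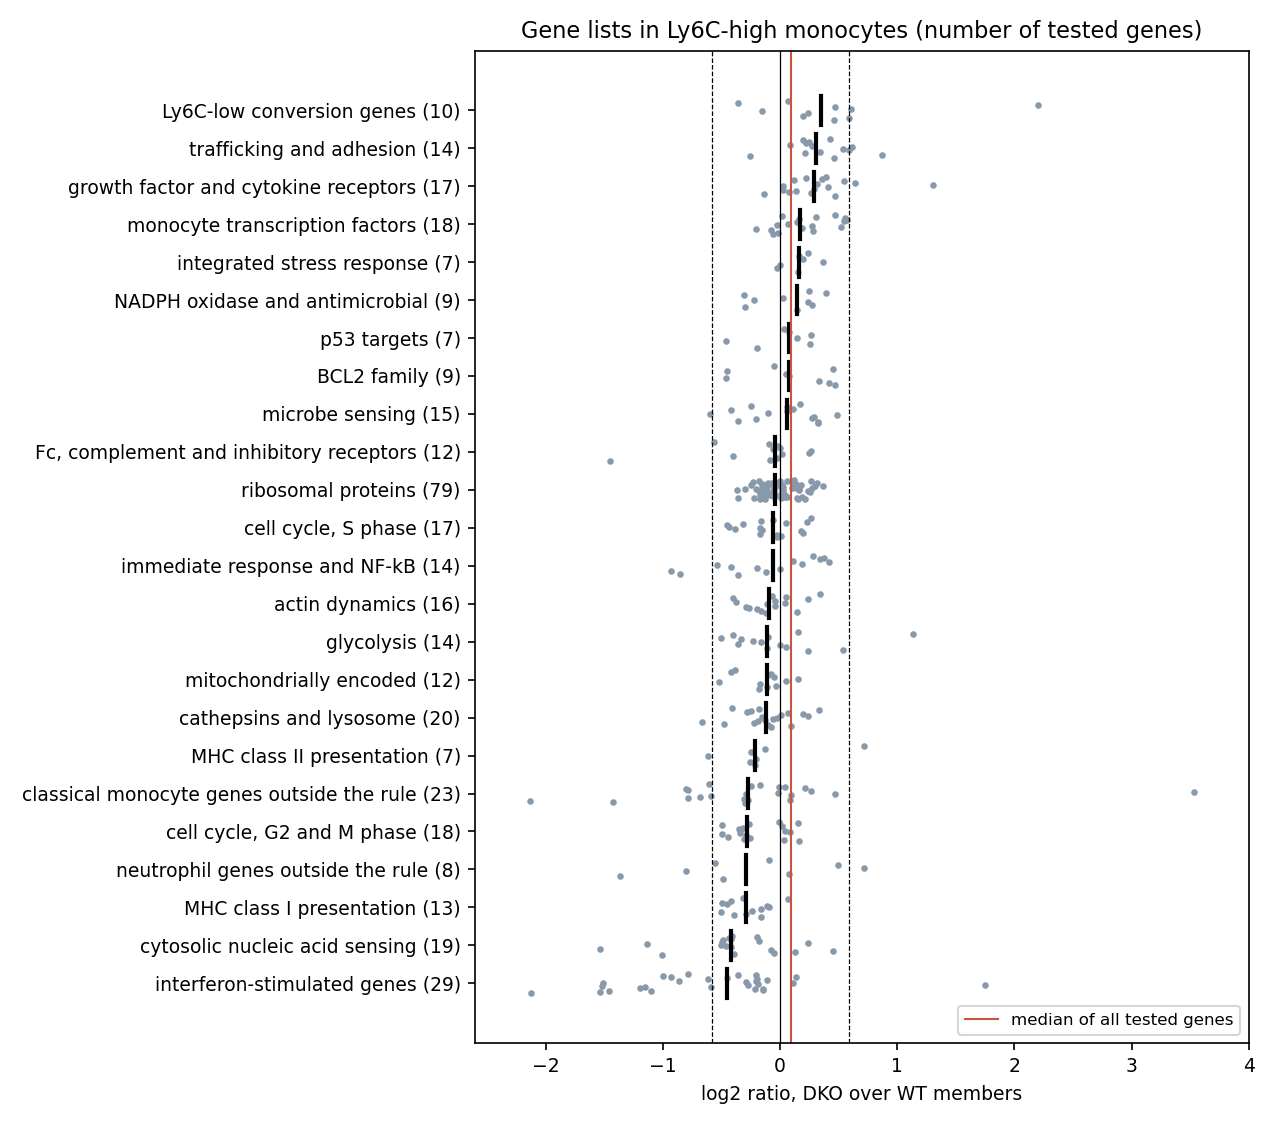
Log2 ratio of DKO over WT for the tested genes of 24 lists in members, 1 point per gene, with a black bar at each list's median, the red line at the median of all tested genes (0.09) and dashed lines at 1.5-fold. Interferon-stimulated genes (-0.45) and nucleic acid sensing (-0.42) are at the bottom, Ly6C-low conversion genes (0.35, or 0.18 without members carrying foreign markers), trafficking (0.31) and receptors (0.29) at the top, and the 79 ribosomal protein genes lie in a narrow band.

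Genes for movement and adhesion were mostly above 0. Of 14 tested, 13 had a ratio above 0, 3 were higher and none was lower, with a median of 0.31. Over all tested genes, 60.9% had a ratio above 0, 4.48% were higher and 2.26% lower, and the median was 0.09. Without members carrying foreign markers 3 genes of the list were higher and 1 was lower. Cxcr4, the receptor for Cxcl12 that keeps monocytes in the marrow, was at 124 CPM in WT members and 227 CPM in DKO members (0.87, interval 0.77 to 0.97). Its ratio was also above 0.58 in C1q macrophages (0.63), progenitors (0.68) and B cells (0.94). Itgb1 and Itgal, a beta 1 and an LFA-1 integrin chain gene, were at 0.62 and 0.59, and Itga4, the partner of Itgb1, at 250 and 362 CPM (0.53). Cx3cr1, the fractalkine receptor gene that increases as monocytes mature toward the Ly6C-low state, was at 92.1 and 126 CPM (0.46). Ccr1 was below 0 (-0.26).

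Growth factor and cytokine receptors had a median of 0.29 over 17 genes, with 2 higher and none lower, against 4.48% and 2.26% of all genes. Tgfbr1, a TGF-beta receptor gene, was at 38.1 CPM in WT members and 94.4 CPM in DKO members (1.31, interval 1.14 to 1.48), and the interleukin 6 receptor gene Il6ra at 224 and 350 CPM (0.64). Csf1r, the receptor through which M-CSF sustains monocytes, was at 133 and 184 CPM (0.47). The receptor genes Csf2ra and Csf3r differed little, at -0.14 and 0.08. Tgfbr1 was higher in the other cell sets too, at 0.94 in progenitors, 0.84 in neutrophils, 0.62 in C1q macrophages and 0.99 in B cells.

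Transcription factors of the lineage gave no call among 18 tested, with a median of 0.17, but 2 were higher and the median was 0.30 without members carrying foreign markers. Spi1, which encodes PU.1, was at 430 and 413 CPM (-0.06), Irf8 at 422 and 417 CPM (-0.02) and Klf4 at 230 and 218 CPM (-0.08), all near equality. With all members the highest were Fli1 (0.57), Id2 (0.56), Runx1 (0.54) and Cebpa, the driver of the granulocyte-monocyte program (0.52). The Ly6C-low conversion list had a median of 0.35 over 10 genes, with 3 higher and none lower, against 4.48% and 2.26% of all genes. Without members carrying foreign markers its median was 0.18, with 2 higher. Its higher genes were Cd9, Adgre4 (0.60) and Itgal (0.59), and Cd9 was at 2.20 with all members and -0.03 without those carrying foreign markers. Nr4a1, the factor required for Ly6C-low monocytes, was below 20 CPM, with 181 UMIs in WT members and 142 UMIs in DKO members (0.11).

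Antigen presentation genes were mostly below 0. The 13 tested MHC class I genes had a median of -0.29 and 12 of them were below 0, whereas 60.9% of all tested genes were above 0. None of the 13 was called, with B2m at -0.17, H2-K1 at -0.39 and the immunoproteasome gene Psmb9 at -0.49. Among 7 MHC class II genes (median -0.21), H2-Eb1 was lower at 441 and 287 CPM (-0.62), and Ciita, their master regulator, was higher at 19.2 and 31.5 CPM (0.71). Over all genes 2.26% were lower and 4.48% higher. Among members that also held Ly6c2 the class II median was -0.64. It was -1.43 in members with at least 2 Ly6c2 UMIs, fewer than 2 G2 and M phase UMIs and no foreign markers. Cd74, the invariant chain, was at 1053 and 908 CPM (-0.21). Microbe sensing had a median of 0.06 over 15 genes. The lectin receptor gene Clec4e was the 1 lower gene (-0.60) and none was higher, against 2.26% and 4.48% of all genes. Without members carrying foreign markers no gene of this list was called. Cd14, the co-receptor for lipopolysaccharide, was under 20 CPM, with 171 and 63 UMIs (-0.96). Fcgr1, the high-affinity receptor for IgG, was at 49.7 and 18.1 CPM (-1.45). It was the 1 lower gene among 12 tested Fc, complement and inhibitory receptor genes, against 2.26% of all genes. Its ratio was -2.30 in progenitors, -1.94 in neutrophils and -3.04 in B cells. In progenitors and neutrophils it was under a mean of 20 CPM, and no gene of the list was lower in C1q macrophages.

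Ribosomal protein genes, which were of interest in the mice studied, gave no call among 79 tested. Their median was -0.05 and their ratios ran from -0.37 to 0.36, with 167757 CPM summed in WT members and 165374 CPM in DKO members. The 7 tested p53 targets had a median of 0.08 and no call, with Cdkn1a at 40.1 and 34.8 CPM (-0.20), Mdm2 at 0.26 and Bax at -0.46. The NADPH oxidase and antimicrobial list (0.15) and the 20 cathepsin and lysosome genes (-0.12) gave 1 call between them, Ctsl at -0.66, which was at -0.42 and not called without members carrying foreign markers. Over all genes 4.48% were higher and 2.26% lower.

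Among genes of at least 100 CPM, several of the lowest ratios outside the interferon and classical lists belonged to genes that were lower in every cell set compared. Hist1h2ap, a replication-dependent histone gene, was at 909 CPM in WT members and 170 CPM in DKO members (-2.42), against -2.07 in progenitors, -2.50 in neutrophils, -2.92 in C1q macrophages and -2.32 in B cells. Gm10076 was at -1.40 and Hist1h2ae at -1.22, each also below -0.58 in the other 4 sets. These genes have near-identical copies, among which reads that map to several places are dropped, so their levels are uncertain. The immunoglobulin gene Igkc was at -2.93, but at -0.25 without members carrying foreign markers, and up to 48.4% of its WT UMIs could be free RNA. The AP-1 factor genes Jund (-0.93) and Jun (-0.86) were the 2 lower genes among 14 tested of the immediate response and NF-kB list, against 2.26% of all genes. The median of that list was -0.06.

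Of the highest ratios, Ppbp (4.30), Pf4 (3.24), Gng11 (2.91), Nrgn (2.90) and Ctla2a (2.21) were set by the 2 barcodes with megakaryocyte transcripts and turned to -1.74, -1.02, -1.17, -2.03 and -2.91 without members carrying foreign markers. Prkar2b went from 1.29 to 0.16 in the same way. The increases that stayed were Fkbp5, a co-chaperone gene that glucocorticoids induce, at 78.6 and 178 CPM (1.18, and 1.21 without those members), and Rsrp1, a splicing-related gene, at 278 and 594 CPM (1.09 and 1.16). Tsc22d3, or GILZ, another glucocorticoid-induced gene, was at 108 and 174 CPM (0.69), Parp8 at 305 and 614 CPM (1.01), the receptor kinase gene Grk5 at 185 and 357 CPM (0.94) and the adaptor gene Fyb at 294 and 542 CPM (0.88). These 4 were picked after their values were seen.

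Members were not all alike. With each cell thinned to 2000 UMIs, which left 1125 WT and 620 DKO members and set aside 47 and 13 shallower ones, 45.2% of WT members and 34.7% of DKO members held at least 2 UMIs of the G2 and M phase list. Without thinning the shares were 62.9% and 52.4%. The cut is a range rather than a class: 160 WT and 66 DKO members held 1 such UMI and 64 and 27 held 2. In B cells the thinned shares were 25.1% and 16.9%, at median depths of 3044 and 3895 UMIs against 7999 and 10219 in members. Cycling members were deeper, with a median of 12774 UMIs in WT and 19692 in DKO against 6647 and 8739 for the others. The G2 and M genes themselves had a median log2 ratio of -0.28 and the S phase genes -0.06, with no gene of either list called, and Mki67, the proliferation antigen, was at 410 and 457 CPM (0.16).

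A smaller subset carried MHC class II. At least 5 UMIs of Cd74, H2-Aa, H2-Ab1 and H2-Eb1 were found in 12.8% of thinned WT members and 13.1% of thinned DKO members (15.5% and 17.7% unthinned), and few cells lay near this cut, 8 and 6 with 4 UMIs and 5 and 3 with 5. In B cells, which present antigen, the share was 61.8% and 58.6%. These members had little Ly6c2, 475 CPM in WT and 151 CPM in DKO, and 527 and 401 CPM of Cd209a, a lectin gene of monocyte-derived and dendritic cells, against 11.6 and 13.9 CPM in the rest. They held 12084 and 9119 CPM of Cd74. Their Chil3 levels were 109 and 91.3 CPM, a ratio of -0.25 (-0.71 to 0.19), against -2.14 in all members. Ifi27l2a was at 1571 and 562 CPM (-1.48) in this subset.

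The Chil3 and interferon differences were present across the other subsets. The Chil3 ratio was -2.20 in cycling members and -2.17 in the rest, and -2.16 and -1.34 in thinned members with and without a Ly6c2 UMI. For Ifi27l2a the ratio was -1.73 in cycling members, -1.59 in the rest and -1.46 in members that were not cycling, had few MHC class II UMIs and held Ly6c2, 423 in WT and 246 in DKO. In that subset Chil3 was at 2311 and 535 CPM (-2.11), Vcan at 380 and 185 CPM (-1.04), Plac8 at 3660 and 1839 CPM (-0.99) and Ly6c2 at 1957 and 1517 CPM (-0.37). Ddx41 was at -1.0 in cycling and -0.98 in non-cycling members.

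The shares of these genes had the same order between WT and DKO as their levels. After thinning, a Chil3 UMI was seen in 59.0% of WT members (56.1% to 61.9%) and 32.3% of DKO members (28.6% to 36.1%), against 6.96% and 2.23% of B cells. Unthinned, the shares were 69.7% and 51.9%. Ifi27l2a was seen in 67.1% and 40.6% of thinned members and 40.7% and 20% of B cells, and in 85.5% and 63.2% of members unthinned. For Vcan the thinned shares were 26.8% and 11.5%, with 0.605% and 0.0720% in B cells, and 48.4% and 25.8% unthinned. Isg15 was rare, at 10.1% and 3.55% thinned and 27.2% and 10.3% unthinned, with 3.93% and 1.01% in B cells. Ccr2 was seen in 81.6% and 82.4% thinned and 97.2% and 98.7% unthinned, against 2.66% and 0.432% of B cells. Ly6c2 was seen in 78.7% and 72.4% thinned and 86.2% and 85.2% unthinned, against 7.68% and 2.95% of B cells, with a median of 3 Ly6c2 UMIs per thinned WT member and 2 per DKO member.

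**Figure D5:**
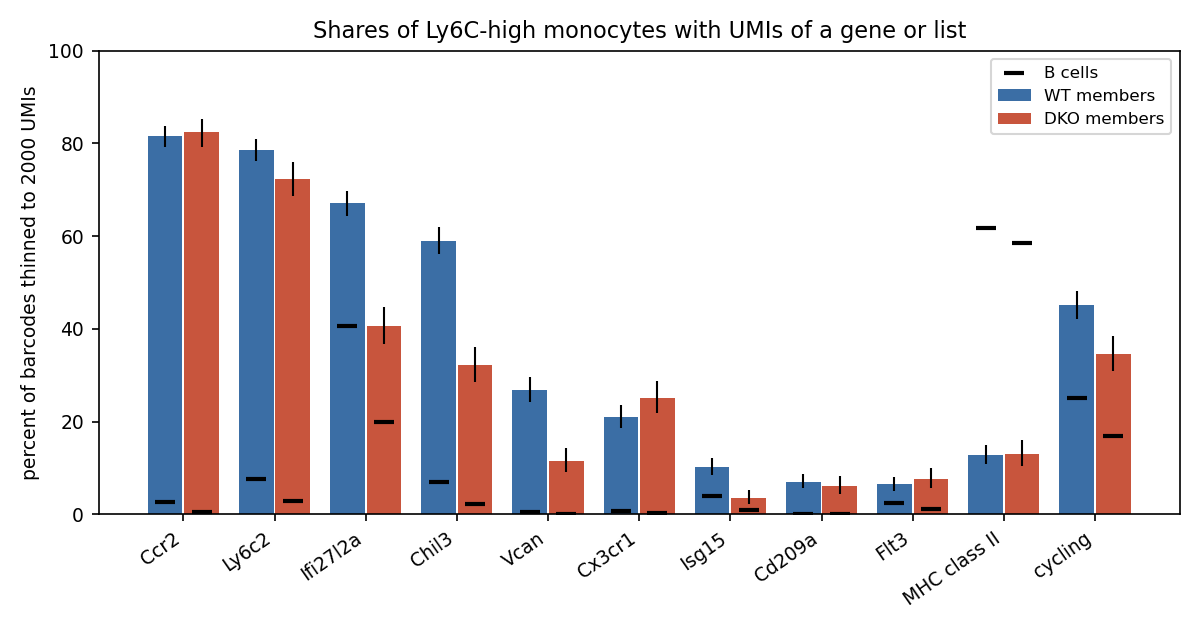
Percent of members, each thinned to 2000 UMIs, with at least 1 UMI of a gene, at least 5 UMIs of 4 MHC class II genes or at least 2 UMIs of the G2 and M list (cycling), for WT (blue, 1125 members) and DKO (red, 620 members), with exact 95% intervals and the share in B cells as black dashes. The shares are larger in WT for Ifi27l2a, Chil3, Vcan, Isg15, cycling and, by less, Ly6c2, and close for Ccr2 and MHC class II. The intervals cover counting in 1 library per genotype, so they do not test a difference between genotypes.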

How the data were processed

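10x Chromium 3' v3 data from mouse femoral marrow were analysed. The deposited values are UMI counts per gene and barcode, not normalized, which the authors made with Cell Ranger (7.1.0 in the file header) on mm10, as the submitters' processing notes state; the labels do not give the filters. The WT matrix was unfiltered and the DKO matrix held called barcodes only. Cell Ranger drops reads that map to several genes, so near-identical copies are uncertain.

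Members were found by the rule given above, and CPM were computed from the summed UMIs of all members of a library. Log2 ratios had 1 count added and exact conditional binomial 95% intervals, levels had Poisson intervals and shares had Clopper-Pearson intervals. Each genotype had a single library and nothing was tested; "higher" and "lower" calls mean at least 1.5-fold at a mean of at least 20 CPM. UMIs from one droplet share a library, so intervals cover counting error only. No doublet caller was run; members with at least 2 UMIs of foreign markers were left out as an alternative. Free RNA was bounded by the hemoglobin share of WT barcodes of at most 100 UMIs, which was used for both libraries. Genes at 0 UMIs in a group were given no fold.

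Genes named were Ddx41 and Cgas, the 5 markers, from each list the 3 most abundant genes and those with the highest and lowest ratio, lists of at most 8 genes in full, the 10 largest increases and decreases of at least 100 CPM and the 10 genes highest over other barcodes or most overdispersed. Other genes printed are list members chosen after their values were seen. The members and the lists were chosen with earlier results of these data known. The listed genes Ly6a2, Clec7a, Mx1, Mx2, Ddit3 and Aldoa were not analysed here, and Sting1 was read as Tmem173. Some genes are not reported here. The ratio script was checked on simulated counts for the comparison of members: over 6551 genes it called 100% of 2-fold changes and 0% of unchanged genes, and 95.3% of intervals held the true value. These were Poisson counts drawn from pooled means, without variation between cells, doublets or mice. The check therefore covers the arithmetic and gives no rate of false calls in the real data. Alternatives changed the member criteria, the scaling, the counts added, the level minimum, the thinning and the free RNA. Python 3.11.15, numpy 2.4.6, scipy 1.17.1, pandas 2.3.3 and matplotlib 3.10.9 were used.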

Additional observations from a re-analysis of the deposited data

Results flagged for a closer look

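Some genes of megakaryocytes and platelets had opposite differences in members and in C1q macrophages, and for Ppbp and Pf4 also in neutrophils. The difference between the cell sets was not tested. The 6 megakaryocyte and platelet markers summed to 121 CPM in WT and 638 CPM in DKO B cells, the same direction as in members. In progenitors they summed to 36.1 and 27.6 CPM. In members, Ppbp, a platelet chemokine gene, was at a log2 ratio of 4.30, against -3.04 in neutrophils and -4.76 in C1q macrophages. Pf4, platelet factor 4, was at 3.24, against -2.36 and -1.34. Against C1q macrophages the ratios of Gng11 were 2.91 and -1.95, those of Nrgn 2.90 and -1.77, and those of Ctla2a 2.21 and -1.85. Without members carrying foreign markers these genes were at -1.74, -1.02, -1.17, -2.03 and -2.91 in members. The 2 DKO barcodes with 97630 and 111724 UMIs held 99.0% of the Pf4 and Ppbp UMIs of DKO members.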

How the results depend on the processing

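Of the 24 list medians, 16 kept their sign under every alternative run. The other 8 turned in at least 1: immediate response and NF-kB (-0.16 to 0.18), S phase (-0.33 to 0.072), microbe sensing (-0.055 to 0.12), Fc and complement receptors (-0.18 to 0.0073), p53 targets (-0.0014 to 0.21), the BCL2 family (-0.017 to 0.26), the integrated stress response (-0.022 to 0.21) and ribosomal proteins. No paired analysis was possible because each genotype had 1 library, and for the same reason no replicate was left out. 2 alternatives, leaving out members with at least 10 megakaryocyte UMIs and keeping only non-cycling members with at least 2 Ly6c2 UMIs and no foreign markers (277 WT, 189 DKO), were chosen after seeing the data. In the alternatives, cycling members were those with at least 2 G2 and M UMIs before thinning. Leaving them out kept 448 WT and 304 DKO members. With the cut made after thinning, as for the subsets above, 617 WT and 405 DKO members were not cycling. Values under the alternatives were tallied for the shares, the counts of higher and lower genes, Ddx41 and Cgas. The tally also took the medians of the classical monocyte, interferon, ribosomal, MHC class II and microbe sensing lists. Of these values, 125 stayed close to the reported value and 46 moved. For the other lists and the other named genes, 2113 stayed close, 624 moved and 29 turned the sign of a difference of at least 1.5-fold. The cause of each move was not tested.

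The counts of higher and lower genes (294 and 148) became 603 and 384 without cycling members, 585 and 338 in the strict set, 171 and 273 under median-of-ratios scaling, 608 and 337 from 5 CPM, 133 and 61 from 50 CPM and 486 and 291 with members thinned to 2000 UMIs. The interferon median (-0.45) became -0.72 without cycling members, -0.70 from 5 CPM and -0.69 with members weighted equally. The classical median (-0.27) became -0.16 without members carrying foreign markers, -0.35 without cycling members, -0.37 under median-of-ratios scaling, -0.18 thinned and -0.13 weighted equally. The class II median (-0.21) became -0.64 with Ly6c2 required, -0.29 without foreign markers, -0.38 without cycling members, -1.43 in the strict set, -0.30 under median-of-ratios scaling, -0.47 thinned and -0.43 weighted equally. The ribosomal median (-0.05) became 0.000922 with Ly6c2 required, -0.15 without cycling members, -0.018 without megakaryocyte-rich members, -0.14 under median-of-ratios scaling, -0.012 thinned and 0.012 weighted equally, so it has no fixed sign. Cgas was at -0.12 thinned and Ddx41 at -0.66 in the strict set.

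The WT share (5.93%) became 5.48% from 10 rule-gene UMIs, 7.08% from 2000 UMIs, 5.01% with Ly6c2 required, 5.0% without foreign markers, 2.27% without cycling members and 1.40% in the strict set. The DKO share (4.55%) became 5.06% from 2000 UMIs, 3.80% with Ly6c2, 3.89% without foreign markers, 2.18% without cycling members and 1.36% in the strict set.

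Signs turned for 9 of the 42 genes checked that were at least 1.5-fold apart, and for 31 of the 104 less far apart, among them Mki67 (-1.53 to 0.20), Ccr2 (-0.053 to 0.12), Ifnar2 (-0.099 to 0.072), Csf3r (-0.13 to 0.22), S100a4 (-0.28 to 0.098) and Csf2ra (-0.23 to 0.019). The values of the 9 follow. With Ly6c2 required, without foreign markers, without megakaryocyte-rich members and in the strict set, in this order, Ppbp was at -2.02, -1.74, -1.98 and -1.76, Pf4 at -2.21, -1.02, -1.38 and -1.22, Gng11 at -1.08, -1.17, -1.12 and -1.45, Nrgn at -0.64, -2.03, -1.13 and -0.72, and Ctla2a at -0.35, -2.91, -0.53 and -3.19. Cd9 was at -0.22 with Ly6c2 required, -0.033 without foreign markers and -1.01 in the strict set. Slc2a3 was at -0.14 without foreign markers and -1.13 in the strict set. Igtp was at -0.043 with Ly6c2 required, -0.12 without foreign markers and -0.11 without megakaryocyte-rich members. S100a9, which the rule reads, was at 0.41 with free RNA subtracted. Chil3 (-2.25 to -1.89), Ifi27l2a (-1.62 to -1.45), Isg15 (-2.69 to -1.37), Vcan (-1.52 to -0.83), Cxcr4 (0.78 to 1.73) and Tgfbr1 (1.11 to 1.36) kept their direction under all 17 alternatives. Among these alternatives, the subtraction of free RNA used the WT profile for both libraries.

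Depth limits the rarer genes: Ddx41 rests on 154 UMIs and Isg15 on 132 UMIs in DKO members. The interval of each covers counting only.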

Other observations

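Over members thinned to 2000 UMIs, the genes whose counts varied most between cells were largely shared by the libraries: 17 of the 20 with the highest ratio of variance to mean (Fano factor) were in both lists, while the median over 3599 genes was 1.08 in both. Igkc, Prss34, a basophil protease gene, Hbb-bs, Pf4 and Cd74 led. The Fano factor of Prss34 was 81.6 in WT and 64.6 in DKO, and 9 WT and 11 DKO members held at least 10 UMIs of basophil and mast cell markers. For Igkc it was 165 in WT and 1.62 in DKO.

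Relative to all other kept barcodes, members were set apart by genes the rule did not read as well as by those it did. Arhgef37 was 5.20 higher on the log2 scale in WT members and 6.57 in DKO members, S100a4, a calcium-binding protein gene, 5.06 and 6.15, and the mitochondrial calcium uniporter subunit gene Mcub 4.67 and 6.16. Stxbp6, Ptpro, Pid1 and Plcb1 followed, at 4.59, 4.49, 4.56 and 4.29 in WT. These are descriptions of how the members were chosen.

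In the glycolysis list, Eno1 was at 197 CPM in WT members and 138 CPM in DKO members (-0.51), Ldha at 212 and 161 CPM (-0.40) and Hk2 at 76.3 and 111 CPM (0.54), with a list median of -0.11. Slc2a3 was the 1 called gene of 14 tested, at 1.14, whereas 4.48% of all genes were higher and 2.26% lower. It was at -0.14 without members carrying foreign markers. The inhibitor and subunit genes of NF-kB Nfkbia, Nfkb1 and Rel were at 0.41, 0.34 and 0.38, none of them called. Of neutrophil genes outside the rule, Lcn2 was at -1.37 and Mmp8 at -0.80, Cd177 at 0.72, and up to 80.2% of the WT UMIs of Lcn2 could be free RNA. Lists with no call were the 9 tested genes of the BCL2 family (median 0.07), the 7 of the integrated stress response (0.16), the 12 mitochondrially encoded genes (-0.11) and the 16 of actin dynamics (-0.09).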
